A study of Mus musculus with 10 samples.

Results

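The interferon-inducible GTPases Igtp, Irgm1, Irgm2, Iigp1, Gbp2, Gbp3 and Gbp7 were examined in red cell precursors that differed in the gene dose of Ddx41, a DEAD-box RNA helicase, and of Trp53, the p53 tumor suppressor. These 7 genes are the immunity-related and guanylate-binding GTPases of the series that were selected on earlier measured values, because Igtp and Irgm2 differed with Trp53 genotype in these same mice. The levels of those members by Trp53 genotype are therefore a description, and no test of them is given. All 7 members were found among the 24421 genes of the count table, and all 7 passed the filter on low counts that 11846 genes passed.

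Bone marrow was taken from Rosa-CreERT2 donors, in which a tamoxifen-activated Cre is expressed from the ubiquitous Rosa26 locus, and 1000000 cells were transplanted into lethally irradiated BoyJ recipients. Every recipient, controls included, received tamoxifen in 2 rounds of daily 1 mg injections over 5 days each, which deletes the floxed copy of Ddx41 where the donor carries one. At 8 weeks, R2 cells, which are CD71+Ter119+ erythroblasts, were sorted from each mouse (about 100000 cells) and sequenced as bulk polyadenylated RNA. The 4 genotypes were Ddx41+/+ Trp53+/+ (3 mice), Ddx41+/- Trp53+/+ (2 mice), Ddx41+/+ Trp53+/- (3 mice) and Ddx41+/- Trp53+/- (2 mice), with 1 library per mouse and 10 mice in all. All strains were kept on a C57BL/6N background, and the ages of the mice are not given in the sources used here. The Trp53+/- genotype carries 1 germline null allele, so every donor-derived cell lacks that copy. The labels name no donor marker in the sort, so host cells that survived irradiation were not distinguished.

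Libraries held 7866648 to 20283930 counted fragments. Summed levels of 10 erythroid markers, among them Klf1, Alas2 and Tfrc, lay between 43500 and 49400 counts per 1000000 counted fragments (CPM) in all 10 mice, although the globin gene Hbb-bt was listed at 0 throughout. The targeted genes had lower values in the genotypes labelled as lacking a copy. Trp53 was at 57.4 to 68.1 CPM in the Trp53+/+ mice and at 40.3 to 46.2 CPM in the Trp53+/- mice (log2 fold change -0.48, SE 0.069, adjusted p = 0.00355, edgeR quasi-likelihood test), a difference under the 1.5-fold limit used here. Ddx41 had a log2 fold change of -0.63 (SE 0.156, adjusted p = 0.0887) between Ddx41+/- and Ddx41+/+ mice with Trp53+/+ and of -0.78 (SE 0.153, adjusted p = 0.177) with Trp53+/-. The Ddx41 levels did not overlap between those groups, but neither adjusted p passed 0.05.

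Interferon-inducible GTPases are a first line of cell-autonomous defense. Interferons signal through JAK kinases and STAT factors to promoters that carry interferon-stimulated response elements (ISRE) or gamma-activated sites (GAS), and the GTPases made in response gather on the vacuoles in which bacteria and protozoa live. The immunity-related GTPases comprise regulators, which sit on the cell's own membranes and hold the others inactive (Irgm1, Irgm2 and Igtp, also called Irgm3), and effectors such as Iigp1 that coat and break the pathogen vacuole. The guanylate-binding proteins Gbp2, Gbp3 and Gbp7 are larger relatives that assemble on the same vacuoles and on bacteria. In hematopoiesis, Irgm1 is known for protecting stem cells and lymphocytes under interferon exposure. Conjugation of ATG8 proteins, the machinery of autophagy, is required for loading these GTPases onto their targets.

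Igtp and Irgm2 stand side by side on mouse chromosome 11. In GRCm38 with GENCODE M21 annotation, Igtp spans chr11:58199556-58207591 and Irgm2 spans chr11:58199618-58222782, both on the plus strand, because 1 of the 3 Irgm2 transcripts starts inside an Igtp exon and shares 162 bases with the exons of Igtp (4.39% of all Irgm2 exon bases). Both genes lie 11.4 Mb from Trp53 (chr11:69580359-69591873). Irgm1 (chr11:48861968-48871683, minus strand) is on the same chromosome, 20.7 Mb from Trp53. Gbp7 (chr3:142530342-142550149), Gbp3 (chr3:142560026-142573209) and Gbp2 (chr3:142620602-142638008) form a cluster on chromosome 3, all on the plus strand, and Iigp1 lies apart from the others.

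The 250 bases before the RefSeq start sites of Igtp (chr11:58199306-58199555) and Irgm2 (chr11:58214727-58214976), both plus strand and GRCm38.p6, are shown because these genes carried the Trp53 difference. The 100 bases before Gbp7 (chr3:142530236-142530335, plus strand) are shown for a family member without it. Capitals mark the ISRE-like core, spelled GAAANNGAAA on either strand.
Igtp: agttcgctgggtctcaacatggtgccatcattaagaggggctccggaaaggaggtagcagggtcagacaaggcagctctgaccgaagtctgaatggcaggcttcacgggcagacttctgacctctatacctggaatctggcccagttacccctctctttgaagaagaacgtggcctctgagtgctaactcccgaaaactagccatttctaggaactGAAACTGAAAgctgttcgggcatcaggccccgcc
Irgm2: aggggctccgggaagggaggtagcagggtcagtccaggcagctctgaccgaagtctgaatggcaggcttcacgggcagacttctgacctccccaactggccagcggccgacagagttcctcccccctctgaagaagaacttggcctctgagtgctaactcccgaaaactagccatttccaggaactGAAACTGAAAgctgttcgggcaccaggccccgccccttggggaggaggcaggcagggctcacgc
Gbp7: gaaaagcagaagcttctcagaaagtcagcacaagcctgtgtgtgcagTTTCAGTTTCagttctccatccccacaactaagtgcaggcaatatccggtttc

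The promoters of Igtp and Irgm2 are near copies of each other. Their 300-base RefSeq windows aligned over 264 bases with 247 identical (93.6%), whereas the other 14 pairs among the 6 members with a promoter entry were 68.3% to 76.9% identical over their aligned bases. The ISRE-like core began 34 bases before the start site in Igtp, 64 in Irgm2, 30 in Irgm1, 59 in Gbp2, 45 in Gbp3 and 53 in Gbp7. Thus 6 of 6 members with an entry held it in at least 1 window. The share was 4.03% of 9047 tested genes with an entry and 3.44% of 32851 promoters of the same length. A second Gbp3 window held none, and all 250 bases before the Irgm1 start site lie in annotated Irgm1 exons. A GAS-like core, spelled TTCNNNGAA, was present in Igtp, Irgm2 and Gbp7, 3 of the 6, against 8.48% of those tested genes and 8.3% of promoters. It shared no base with the ISRE-like core. The ISRE-like core was thus shared by members that separated the Trp53 genotypes and by members that overlapped between them, and a match in these letters is a description of the window only.

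Igtp messenger RNA had levels several-fold higher in the Trp53+/- mice. Igtp stood at 36, 34.9 and 61.8 CPM in the Ddx41+/+ Trp53+/+ mice and at 53.9 and 44.6 CPM in the Ddx41+/- Trp53+/+ mice. In the Ddx41+/+ Trp53+/- mice it stood at 165, 216 and 169 CPM, and in the Ddx41+/- Trp53+/- mice at 174 and 194 CPM. The lowest Trp53+/- mouse was above the highest Trp53+/+ mouse. The fitted log2 fold change was 1.99 (SE 0.133, n = 5 against 5), a fold of 3.98, and the fold was 4.17 among Ddx41+/+ mice and 3.71 among Ddx41+/- mice. Leaving out any 1 mouse left the log2 fold change between 1.91 and 2.15. In bulk RNA, more cells that express a gene and more RNA per cell cannot be told apart. Summed B cell markers were also higher, at 156 to 197 CPM in Trp53+/- mice and 44.2 to 184 CPM in Trp53+/+ mice, and the Ddx41+/- Trp53+/+ mouse with 184 CPM of them had 44.6 CPM of Igtp and 22.7 CPM of Irgm2, between the lowest and the highest of the other 4 Trp53+/+ mice. The part of B cells in the Igtp and Irgm2 difference was not tested.

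Irgm2 showed the same order with a larger fold. Its level was 17.5, 12.2 and 26.7 CPM in Ddx41+/+ Trp53+/+ mice, 20.3 and 22.7 CPM in Ddx41+/- Trp53+/+ mice, 151, 199 and 158 CPM in Ddx41+/+ Trp53+/- mice, and 166 and 180 CPM in Ddx41+/- Trp53+/- mice. No Trp53+/+ mouse came near the Trp53+/- range. The log2 fold change was 3.13 (SE 0.148, n = 5 against 5), a fold of 8.73, with 9.15 among Ddx41+/+ and 8.11 among Ddx41+/- mice, and between 2.98 and 3.29 when any 1 mouse was left out.

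Because the fold of Irgm2 was larger, the balance of the neighbors differed between Trp53 genotypes. Per Igtp count, the Trp53+/+ mice had 0.487, 0.349, 0.432, 0.377 and 0.51 Irgm2 counts. The Trp53+/- mice had 0.916, 0.924, 0.936, 0.954 and 0.929, a narrower range. These ratios rest on 179 to 386 Irgm2 counts in Trp53+/+ libraries and 1510 to 3222 in Trp53+/- libraries. Of the 75-base stretches of the longest transcripts, 8.37% of those in Igtp also occur in Irgm2 and 4.02% of those in Irgm2 occur in Igtp, so reads in these stretches may have been assigned to neither gene or to the wrong one.

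**Figure D1:**
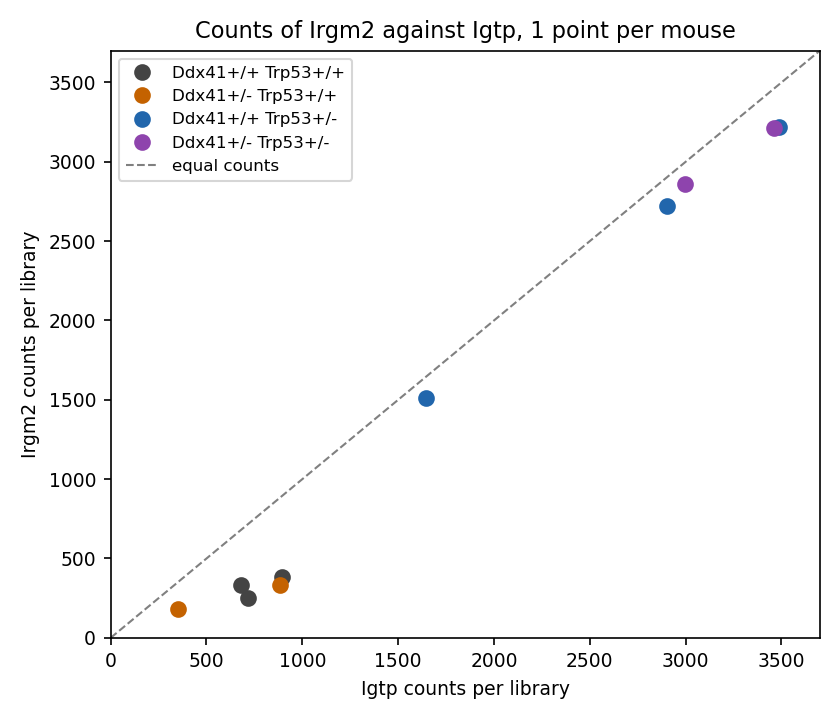
Irgm2 counts (vertical) against Igtp counts (horizontal) per library, 1 point per mouse, colored by genotype, with a dashed line of equal counts. The 5 Trp53+/- mice lie just under the line at ratios of 0.916 to 0.954, and the 5 Trp53+/+ mice lie far below it at 0.349 to 0.51.

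The third regulator, Irgm1, overlapped between Trp53 genotypes. Irgm1 ranged from 63.7 to 76.9 CPM (median 69.8) in the 5 Trp53+/+ mice and from 59.7 to 81.7 CPM (median 71.2) in the 5 Trp53+/- mice, with a log2 fold change of 0.02 (SE 0.0796). Gbp7 ranged from 44.2 to 73.6 CPM and from 43.1 to 64.7 CPM (log2 fold change -0.01). Of the 21 pairs of members, Irgm1 and Gbp7 had the smallest root mean square difference of centered log2 CPM over the 10 mice. It was 0.197, against 0.58 for Igtp and Irgm2. This measure is small for genes that vary little. Its median over all tested genes was 0.236 against Irgm1 and 0.329 against Gbp7, but 1.06 against Igtp and 1.61 against Irgm2.

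The remaining members were expressed at low level and overlapped between Trp53 genotypes. Gbp2 was at 2.77 to 7.01 CPM in Trp53+/+ and 2.74 to 6.43 CPM in Trp53+/- mice (log2 fold change -0.14). Gbp3 was at 3.98 to 8 CPM and 2.39 to 5.1 CPM, a log2 fold change of -0.47 (95% interval -0.93 to -0.02) with ranges that overlapped. The effector Iigp1 was at 0.583 to 1.89 CPM and 0.757 to 2.3 CPM (log2 fold change 0.29), and rested on only 9 to 41 counts per library. The difference with Trp53 genotype was thus seen without overlap in 2 of the 7 members, which are the 2 used to choose the set. Of all 11846 tested genes, 238 (2.01%) did not overlap between the 5 and 5 mice, and 34 (0.287%) were called at an adjusted p under 0.05 and a fold over 1.5.

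**Figure D2:**
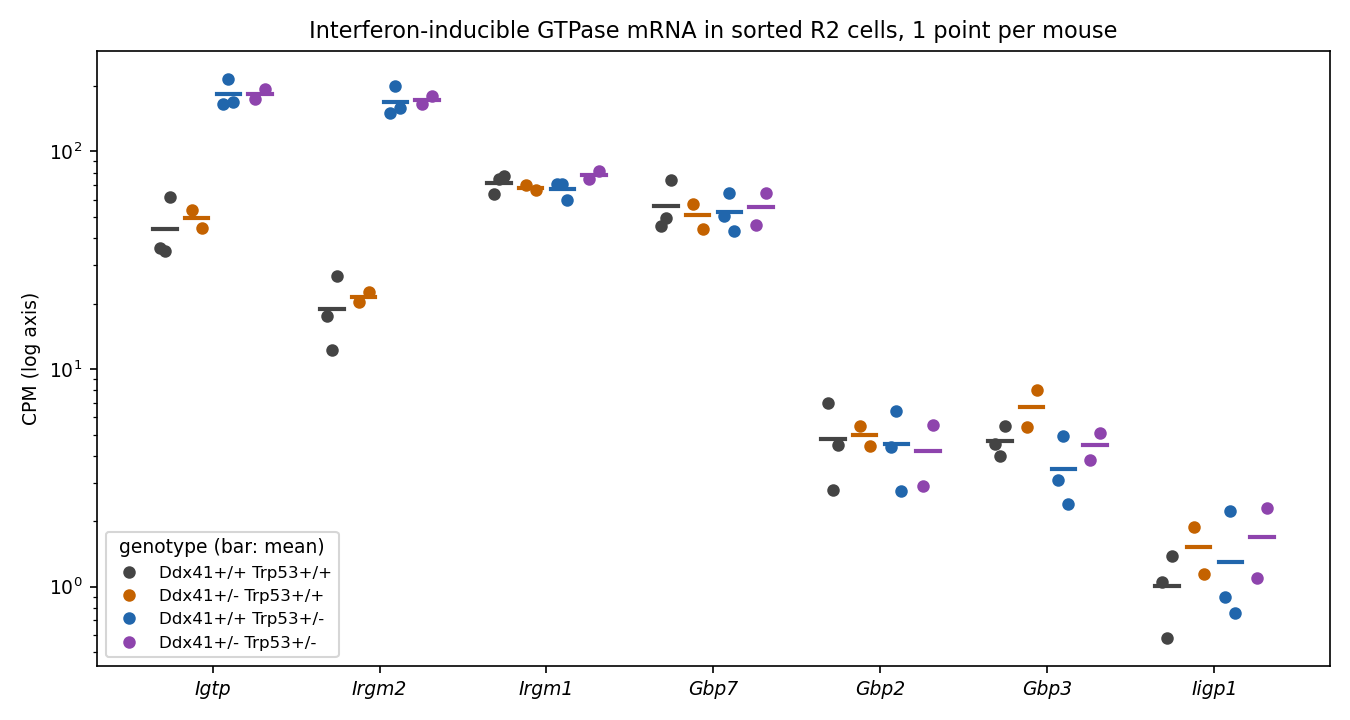
CPM of the 7 members on a log axis, 1 point per mouse and a bar at the mean of each genotype. Igtp and Irgm2 separate the Trp53+/- mice (165 to 216 and 151 to 199 CPM) from the Trp53+/+ mice (34.9 to 61.8 and 12.2 to 26.7 CPM), and the other 5 genes overlap.

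The order of the members by level changed with Trp53 genotype. On a scale of CPM per kilobase of exon, in Trp53+/+ mice Igtp led at 22.9 ± 5.74 (SD, n = 5), followed by Irgm1 at 12.1 ± 0.934, Gbp7 at 9.63 ± 2.15 and Irgm2 at 5.39 ± 1.48. Below them came Gbp2 at 1.92 ± 0.619, Gbp3 at 1.68 ± 0.472 and Iigp1 at 0.208 ± 0.0818. The ranges of Irgm1 and Gbp7 overlapped, as did those of Gbp2 and Gbp3. In Trp53+/- mice Irgm2 moved from the fourth to the second place at 46.3 ± 5.18, behind Igtp at 90.8 ± 10.4 and ahead of Irgm1 at 12.3 ± 1.37 and Gbp7 at 9.56 ± 1.83, with Gbp2 at 1.75 ± 0.642, Gbp3 at 1.19 ± 0.358 and Iigp1 at 0.25 ± 0.128 following in the same order.

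Loss of 1 Ddx41 copy was the comparison that the choice of members did not use, and it addressed whether a DDX41-deficient erythroblast changes its interferon-inducible GTPases. With Trp53+/+, 0 of 7 members were called, where 0.54% of all tested genes were, and 0 of 7 had an unadjusted p under 0.05 (edgeR quasi-likelihood test), with 0 of 7 called by DESeq2 too. Among the regulators, Igtp was at 49.2 ± 6.59 CPM in Ddx41+/- mice (n = 2) and 44.2 ± 15.2 in Ddx41+/+ mice (n = 3), with a log2 fold change of 0.17 and a 95% interval of -0.24 to 0.59. Irgm2 was at 21.5 ± 1.71 and 18.8 ± 7.34 CPM (log2 fold change 0.20, interval -0.28 to 0.69) and Irgm1 at 68.3 ± 2.1 and 71.7 ± 7.04 CPM (-0.07, interval -0.30 to 0.16). The interval of Irgm1 lay within the 1.5-fold limits, and that of Igtp reached just past the upper one.

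Precision was lower for the low-level members. Gbp3 had 5.41 and 8 CPM in Ddx41+/- mice against 4.54, 3.98 and 5.46 CPM in Ddx41+/+ mice, a log2 fold change of 0.51 with an interval of -0.16 to 1.17 and an adjusted p of 0.665, the smallest of the 7. Iigp1 had a log2 fold change of 0.65 with an interval of -0.59 to 1.90, and Gbp2 one of 0.08 (-0.79 to 0.94). Gbp7, the well-expressed member of the chromosome 3 cluster, had -0.13 (-0.57 to 0.31). In all, 5 members were higher and 2 lower, with a median of 0.17 beside 0.00102 over all tested genes. The intervals of Iigp1 and Gbp3 included a 2-fold higher level in Ddx41+/- mice, so a difference of that size is not excluded. The CPM of all 7 members overlapped between these groups, where 24.9% of all tested genes did not.

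With Trp53+/-, again 0 of 7 members were called, where 0.0422% of all tested genes were, and 0 of 7 had an unadjusted p under 0.05 or were called by DESeq2. The high levels of Igtp and Irgm2 in these mice differed by less than 1.5-fold between Ddx41 genotypes. Igtp was at 184 ± 14 CPM in Ddx41+/- (n = 2) and 183 ± 28.2 in Ddx41+/+ mice (n = 3), a log2 fold change of 0.01 (95% interval -0.38 to 0.39), and Irgm2 was at 173 ± 9.95 and 169 ± 25.9 CPM (0.03, -0.37 to 0.43). Both intervals lay within the 1.5-fold limits. Gbp7 had 0.07 (-0.36 to 0.50), Gbp2 -0.09 (-0.95 to 0.77), Gbp3 0.36 (-0.32 to 1.03) and Iigp1 0.38 (-0.82 to 1.56), and the median of the 7 was 0.07 beside -0.005 over all tested genes.

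Irgm1 was the member whose Ddx41 groups did not overlap in the Trp53+/- mice. It stood at 74.8 and 81.7 CPM in Ddx41+/- mice and at 71.2, 71.2 and 59.7 CPM in Ddx41+/+ mice, with a log2 fold change of 0.22 (95% interval -0.01 to 0.44). The exact permutation p was 0.1, two-sided, which is the smallest that 2 mice against 3 can give, and the adjusted p was 1. In the Trp53+/+ mice the same gene was at 69.8 and 66.8 against 63.7, 74.6 and 76.9 CPM, so the order was not repeated. Of all tested genes, 20% did not overlap between the Ddx41 groups of the Trp53+/- mice, so 1 of 7 members is near that background.

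**Figure D3:**
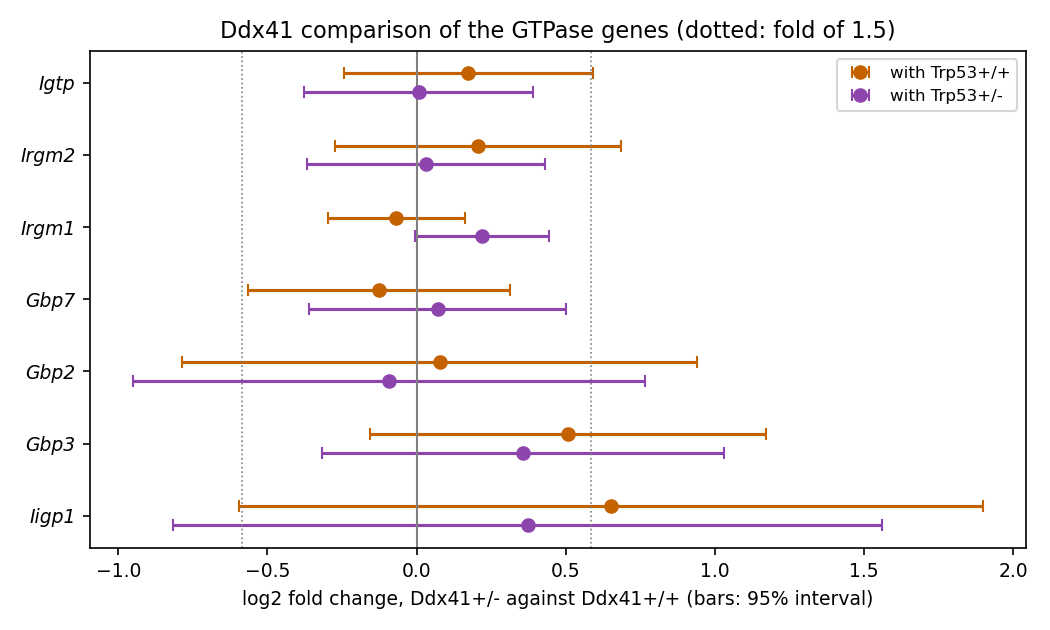
Log2 fold change of each member between Ddx41+/- and Ddx41+/+ mice (points) with its 95% interval (bars), within Trp53+/+ and within Trp53+/- mice. All 14 intervals include 0, and those of Iigp1 and Gbp2 are the widest.

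Whether the Ddx41 difference itself depended on Trp53 was tested as an interaction. No member passed (0 of 7, where 0.0675% of all tested genes did), 0 of 7 had an unadjusted p under 0.05, and 0 of 7 were called by DESeq2. The interaction estimates ranged in size from 0.149 to 0.287 on the log2 scale, and 2 were positive and 5 negative.

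The wider GTPase families were described from a list of 23 further genes, of which 15 passed the filter on low counts. Between Trp53 genotypes, edgeR called 0.287% of all tested genes, and 11.2% had an unadjusted p under 0.05. None of the 15 was called by edgeR or DESeq2, and 1, Ifi47, had such a p. Their log2 fold changes ran from -0.87 to 0.66 with a median of 0.03, beside -0.00242 over all tested genes, so the values of Igtp (1.99) and Irgm2 (3.13) lay outside that range. Ifi47, another effector-type immunity-related GTPase and a well-expressed one, was at 16.5 to 23.7 CPM in Trp53+/+ and 19.5 to 25.6 CPM in Trp53+/- mice (log2 fold change 0.26, SE 0.119, adjusted p = 0.44). Gm12250, an immunity-related GTPase gene that lies 10.5 kb before Igtp, had the highest value of the 15 at 0.66 (SE 0.342, adjusted p = 0.492), on 11 to 73 counts per library. The dynamin-like antiviral GTPase Mx1 had -0.65 (SE 0.369, adjusted p = 0.538).

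**Figure D4:**
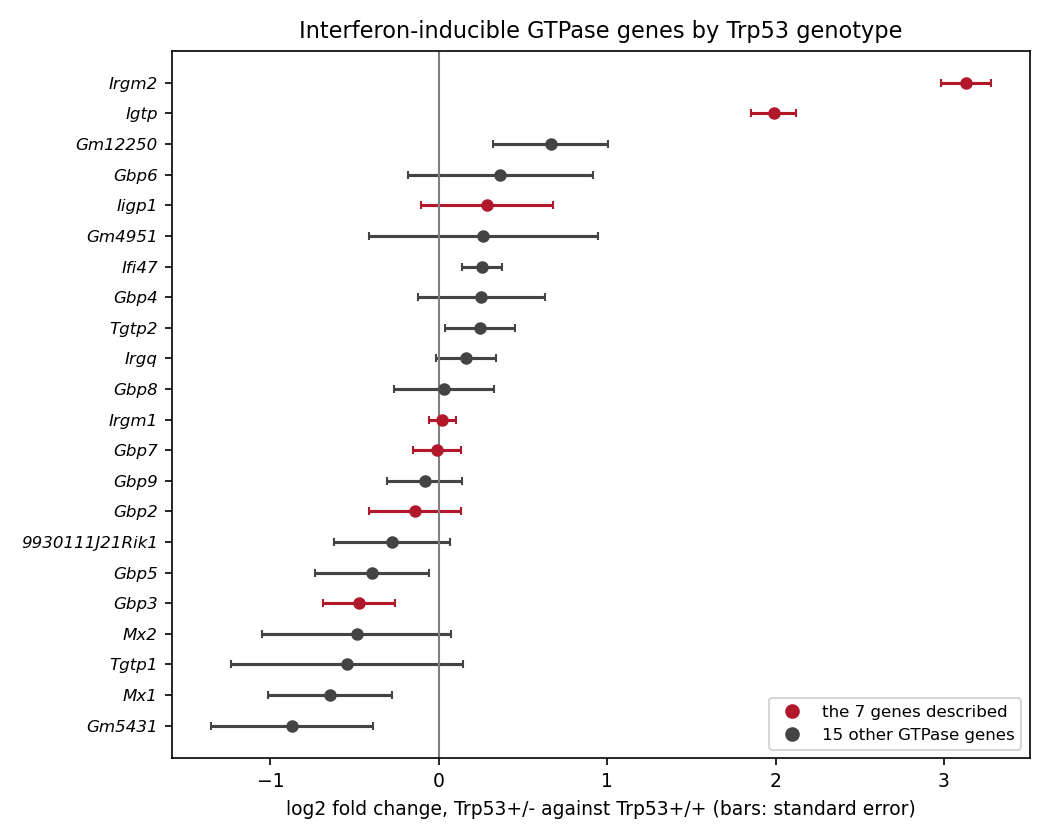
Log2 fold change between Trp53+/- and Trp53+/+ mice (points) with its standard error (bars) for the 7 members and the 15 other GTPase genes that passed the filter. Irgm2 (3.13) and Igtp (1.99) stand to the right of all the rest, which lie between -0.87 and 0.66.

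In the Ddx41 comparisons the further GTPases were likewise not called. With Trp53+/+, 0.54% of all tested genes were called and 9.64% had an unadjusted p under 0.05. Of the 15, 0 were called and 2 had such a p. These were Tgtp2, at 6.69 and 6.22 CPM in Ddx41+/- against 10.3, 10.2 and 14.5 CPM in Ddx41+/+ mice (log2 fold change -0.84, SE 0.245, adjusted p = 0.182), and its near-identical neighbor Tgtp1, at 2.37 and 2.29 against 1.27, 0.194 and 0.553 CPM (1.79, SE 0.823, adjusted p = 0.504). The opposite signs of this pair are uncertain because the counting could split reads between copies. With Trp53+/-, 0 of 15 were called and 0 had an unadjusted p under 0.05, beside 0.0422% and 3.75% of all tested genes. In the interaction 0 of 15 were called and 2, again Tgtp1 and Tgtp2, had an unadjusted p under 0.05, beside 0.0675% and 5.01% of all tested genes. DESeq2 called 0 of 15 in each of these 3 comparisons.

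The genes that carry the interferon signal to these promoters did not pass the test between Trp53 genotypes. Of 19 interferon receptors, JAK kinases, STATs, interferon regulatory factors and their inhibitors, 0 were called, 9 were higher and 10 lower, the median log2 fold change was -0.05, and 4 had an unadjusted p under 0.05 (Irf2, Jak1, Irf8 and Socs1), where 11.2% of all tested genes did. Irf1, a transcription factor induced by interferon-gamma, had 0.17 (SE 0.241). None of 5 interferon genes passed the filter on low counts. Of 20 genes typical of the type I interferon response, 0 were called, 5 were higher and 15 lower, the median was -0.15, and 5 had an unadjusted p under 0.05.

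Genes that share other steps with the GTPases were also examined. Of 12 ATG8 family and conjugation genes, 0 were called between Trp53 genotypes and 0 had an unadjusted p under 0.05 (median 0.06). Of 11 antigen presentation genes, which interferon also induces, 0 were called and 0 had an unadjusted p under 0.05 (median -0.02). DESeq2 called 0 genes of these lists, of the receptor list and of the type I list in this comparison.

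Between Ddx41 genotypes with Trp53+/+, 0 genes of the same lists were called. The unadjusted p was under 0.05 for 9.64% of all tested genes, and for 2 of 19 receptor and transducer genes, 0 of 12 ATG8 genes, 0 of 11 antigen presentation genes and 4 of 20 type I response genes. DESeq2 called Usp18, an inhibitor of type I interferon signaling that is induced by it, with a log2 fold change of 0.66 (adjusted p = 0.0119), where the edgeR quasi-likelihood test gave an adjusted p of 0.072. Of the antigen presentation genes, 10 of 11 were higher (median 0.25). In the same comparison 10 of 10 B cell markers (median 1.02, 2 called) and 7 of 10 T and NK cell markers (median 0.61, 0 called) were higher, and their part in the antigen presentation values was not tested.

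With Trp53+/-, 0 list genes were called by edgeR or DESeq2, and 2 receptor and transducer genes (Stat2 and Irf7) and 3 type I response genes (Xaf1, Ifi27l2a and Oas1a) had an unadjusted p under 0.05, where 3.75% of all tested genes did. All 20 type I response genes had higher fitted values in Ddx41+/- mice (median 0.24, beside -0.005 over all tested genes). In the same comparison 10 of 10 macrophage markers were higher (median 0.53, 0 called, 6 with an unadjusted p under 0.05), with a summed level of 407 to 525 CPM in Ddx41+/- and 262 to 361 CPM in Ddx41+/+ mice, and the part of such cells in the type I values was not tested. Igtp and Irgm2 stood at 0.01 and 0.03 in this comparison. In the interaction, 0 list genes were called by either tool, with an unadjusted p under 0.05 in 2 of 19 receptor, 0 of 12 ATG8, 0 of 11 antigen presentation and 1 of 20 type I response genes, beside 5.01% of all tested genes.

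Markers of other blood cells were read in the same libraries. Summed over 10 B cell markers, the level was 44.2 to 94.6 CPM in Ddx41+/+ Trp53+/+, 116 to 184 CPM in Ddx41+/- Trp53+/+ and 156 to 197 CPM in Trp53+/- mice. All 10 were higher in Trp53+/- mice (median log2 fold change 0.84), and the transcription factor Ebf1 was called (1.29, SE 0.274, adjusted p = 0.0488; DESeq2 called 4 of the 10). In the Ddx41 comparison with Trp53+/+ all 10 were higher as well (median 1.02), and Ebf1 (1.62, adjusted p = 0.025) and Cd79a, a chain of the B cell receptor (1.17, adjusted p = 0.0312), were called. In these 2 Ddx41+/- Trp53+/+ mice, 1 of which had the smallest library (7866648 counts), Igtp and Irgm2 lay within the range of the Ddx41+/+ Trp53+/+ mice. The part of B cells in the Igtp and Irgm2 values was not tested.

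The other marker lists were compared by their sums too. T and NK cell markers summed to 9.04 to 23.9 CPM in Trp53+/+ and 18.4 to 28.4 CPM in Trp53+/- mice, with 9 of 10 higher (median log2 fold change 0.49), 0 called by edgeR, 2 with an unadjusted p under 0.05 and 1, Il7r, called by DESeq2. Macrophage markers summed to 325 to 610 and 262 to 525 CPM, with 0 called of 10 by either tool, all 10 lower, and 4 with an unadjusted p under 0.05. Of the neutrophil markers, 9 were in the table, and they summed to 5280 to 8450 and 4930 to 8450 CPM, with 0 called by either tool and 0 with an unadjusted p under 0.05. Apart from Hbb-bt, the only marker at 0 in a library was Gzma, in Ddx41+/+ Trp53+/+ replicate 11. RNA of these marker genes was thus counted in mice of both Trp53 genotypes, and its cell source was not tested.

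**Figure D5:**
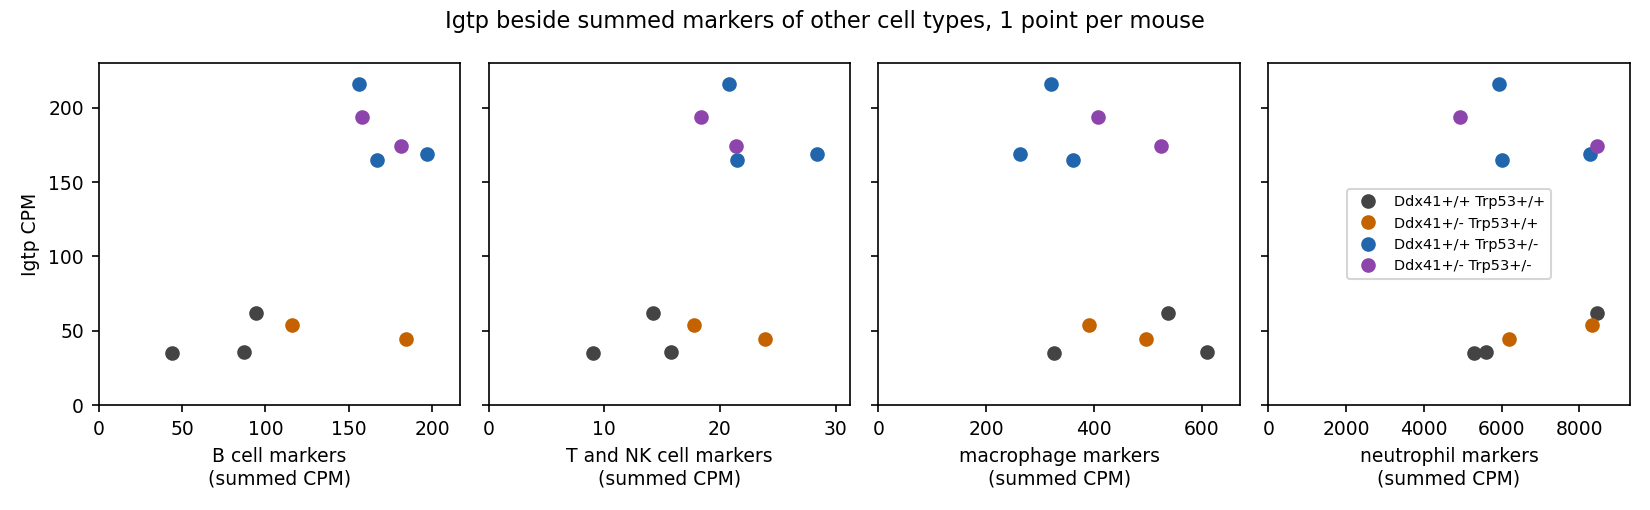
Igtp CPM (vertical) against the summed CPM of the B cell, T and NK cell, macrophage and neutrophil marker lists (horizontal, 1 panel each), 1 point per mouse. The Trp53+/- mice lie at 165 to 216 CPM of Igtp in every panel, and the Ddx41+/- Trp53+/+ mouse with 184 CPM of B cell markers lies at 44.6 CPM of Igtp. The part of these cells in the Igtp level was not tested.

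The place of Igtp and Irgm2 on the chromosome of Trp53 was examined next. Among non-members, 4 of 344 tested genes within 15 Mb of Trp53 were called between Trp53 genotypes (1.16%), 1 of 234 between 15 and 30 Mb (Ebf1), 0 of 421 farther along chromosome 11, and 25 of 10400 on other chromosomes (0.24%). Another 440 tested genes had no single position in the annotation, and 2 of them (0.455%) were called, Fam132b and Nnt. The 4 within 15 Mb, named because they are so few, were Myo15 (2.73, SE 0.19, adjusted p = 3.55e-07), which encodes an unconventional myosin, Larp1 (0.59, SE 0.0626), which encodes an RNA-binding protein, Atp1b2 (-0.92, SE 0.0966), a subunit of the sodium pump, and 2610507I01Rik (-0.83, SE 0.135). They thus included genes in both directions, and they lay from 0.00786 Mb (Atp1b2) to 11.5 Mb (Larp1) from Trp53. Trp53 itself was lower, as given above, and Irgm1, at 20.7 Mb, overlapped between genotypes. The paper names Jackson as the source of its Trp53-knockout mice. Its text does not state the strain origin of the DNA linked to the null allele. Trp53 gene dose and linked DNA that came with the allele therefore cannot be told apart for genes at these distances.

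Of the tested genes nearest to Igtp and Irgm2, 3 on each side, 0 of 6 were called by edgeR or DESeq2. The 3 nearest tested genes on the side of Igtp were Gm12250 (0.66), Mrpl22 at 20 kb (-0.01, SE 0.0994) and Gemin5 at 31 kb (0.13, SE 0.116). On the side of Irgm2 they were Zfp692 at 84.3 kb (-0.17, SE 0.175), Zfp672 at 92.3 kb (-0.17, SE 0.0657) and Sh3bp5l at 108 kb (0.15, SE 0.0748). The unadjusted p was under 0.05 for 1 of the 6, Zfp672. Larp1, which was called, lies 11.5 Mb from Trp53, where Igtp and Irgm2 lie 11.4 Mb from it. Between Irgm2 and Trp53, 2 of 108 tested genes were called, where 0.287% of all tested genes were. The median log2 fold change in this stretch was 0.03.

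The genes most like Igtp and Irgm2 over the 10 mice are a description, because both follow the Trp53 genotypes used to choose them. Likeness was measured as the root mean square difference of centered log2 CPM. Its median over all tested genes was 1.06 against Igtp and 1.61 against Irgm2. The measure depends on the size of the fold, so a gene that separates the Trp53 genotypes by a smaller fold counts as less alike. The nearest to Igtp were Myo15 (0.475), the mast cell protease gene Cpa3 (0.477) and Fam129c (0.516), and the nearest to Irgm2 were Myo15 (0.474), Igtp (0.58) and Ret (0.867). Myo15 was at 2.95 to 5.93 CPM in Trp53+/+ and 23.7 to 42.3 CPM in Trp53+/- mice and lies 9.05 Mb from Trp53 on the same chromosome. Cpa3, on chromosome 3, was at 1.52 to 3.22 and 3.8 to 8.52 CPM, and Ret rested on at most 15 counts per library. Fam129c, on chromosome 8, was at 5.01 to 17.4 CPM in Trp53+/+ and 18.7 to 28.1 CPM in Trp53+/- mice (log2 fold change 1.28, SE 0.232). No member was among the 3 genes nearest to Igtp, and Igtp was the single member among those nearest to Irgm2.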

How the data were processed

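RNA from sorted R2 cells of 10 mice was measured with polyadenylated, 75-base paired-end sequencing. The authors deposited raw counts per gene symbol in 1 table, made per the submitters' processing notes with FastQC 0.11.7, HISAT2 2.0.5 and featureCounts 1.5.2 on mm10. The strand setting and the annotation used in counting are not given in the sources used here, so antisense or overlapping genes cannot be told apart. The name of that table says that replicates were removed from it, and those were not analysed here. Their numbers lie beside those of the Ddx41+/- mice, but their genotypes and the reason for removal are not given in the sources used here. Labels gave genotype and replicate. The libraries stand for single mice, and no batch is named in them. Counts were tested with edgeR 4.0.16 in R 4.3.3 (TMM scaling, filterByExpr with a minimum count of 10, quasi-likelihood F-test, Benjamini-Hochberg adjustment over 11846 genes), with a gene called at an adjusted p under 0.05 and a fold over 1.5. The Ddx41 comparisons and the interaction used 1 mean per genotype. The Trp53 comparison added Ddx41 genotype as a term. CPM uses TMM library sizes, and fitted log2 CPM a prior count of 2. DESeq2 1.42.0 was an alternative, beside other scaling, no filter, no fold limit, the compared genotypes alone, the Trp53 comparison within each Ddx41 genotype and leaving out each mouse. The scripts were tested on simulated data with known changes. The members, the gene lists and the tests were chosen with earlier results of these data known. Named genes were all members, both targeted genes, other GTPases by level, up to 3 called genes per further list, and the 3 genes most like Igtp and Irgm2, and any other gene named was chosen after its values were seen. Promoter windows are from RefSeq (GRCm38.p6), where 6 of 7 members matched. Positions are from GENCODE M21. Counting error is largest for Iigp1, at 9 to 41 counts per library.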

Additional observations from a re-analysis of the deposited data

How the results depend on the processing

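No member was called in any Ddx41 comparison or in the interaction under any of the 287 alternative results computed, of which 30, over 6 members, had the other sign. The smallest adjusted p values were 0.124 (Igtp, Trp53+/+ mice, without Ddx41+/+ Trp53+/+ replicate 12), 0.788 (Irgm1, Trp53+/- mice) and 0.676 (Igtp, interaction). Counts over other genes moved more. Without the filter on low counts, 1 other GTPase (Tgtp2) and 5 list genes (Irf1, Ifi27l2a, Oasl2, Oas2 and Usp18) were called with Trp53+/+, and 2 list genes (Xaf1 and Oas1a) with Trp53+/-. With Trp53+/+, DESeq2 called 1 list gene, Usp18, and leaving out 1 mouse gave 0 to 1, Usp18 without Ddx41+/+ Trp53+/+ replicate 12. Over all genes, the Trp53 comparison gave 34 calls, 52 with no fold limit, 88 with DESeq2, 181 without the filter, and 20 to 79 with 1 mouse left out (20 without Ddx41+/+ Trp53+/- replicate 23, 79 without Ddx41+/- Trp53+/+ replicate 34). The Ddx41 comparison gave 64 with Trp53+/+, 128 with DESeq2, 243 without the filter, and 13 to 103 (13 without Ddx41+/- Trp53+/+ replicate 34, 103 without Ddx41+/+ Trp53+/+ replicate 12). With Trp53+/- it gave 5, 39 without the filter, and 1 to 10. The interaction gave 8, 29 with DESeq2 and 100 without the filter. The cause was not tested. With the longest transcript as length, Irgm1 stood at 18.4 and Iigp1 at 0.388 CPM per kilobase in Trp53+/+ mice, a choice made after seeing the data, and Gbp3 (2.04) stood above Gbp2 (1.92) in place of below it. No paired analysis was made, because the labels name no litter or other pairing of the mice. The paper reports that its transplants used littermates, without saying which. With 2 or 3 mice per genotype, depth limits Iigp1, Gbp2 and Gbp3 most.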

Other observations

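Members other than Igtp and Irgm2 had other neighbors in likeness over the 10 mice. The genes nearest to the effector Iigp1 were Oasl2, an oligoadenylate synthetase-like gene (root mean square difference 0.242), H2-Q4, a class Ib histocompatibility gene (0.276), and Nlrc5, the transactivator of class I histocompatibility genes (0.28), against a median of 0.601 over all tested genes. The nearest to Irgm1 were Mdc1 (0.0662), Tbk1, a kinase upstream of type I interferon production (0.0734), and Usp45 (0.0735), against a median of 0.236. Irgm1 varied so little over the mice (SD 0.133 of log2 CPM) that many genes lie close to it. Likeness here is a description over 10 libraries that share a tissue and a sequencing protocol. These genes were chosen after their values were seen.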
